A study of Mus musculus with 6 samples.

Results

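The genes of sterol and fatty acid synthesis were followed in Ba/F3 cells, mouse pro-B cells that need interleukin-3 (IL-3) to grow, transduced with either of 2 human calreticulin constructs. The list held 31 genes, chosen by name and with earlier results of these data known. Of them, 28 had a row under their symbol among the 12615 rows of the deposited table. Of these 28, 19 belonged to the sterol branch and 9 to the fatty acid branch. The hCALR-del52 cells expressed human calreticulin with the type 1 mutation, a deletion found in myeloproliferative neoplasms, and the hCALR cells expressed the human gene without it. Both constructs stood in the retroviral vector pMSCV-IRES-GFP, and both lines grew in serum-containing medium with IL-3 at 1 ng/ml. Each group had 3 replicates, which gives 6 libraries, and the question was which genes differ between the lines. The labels do not say whether a line is 1 clone, and construct and line cannot be told apart in this design.

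The deposited table holds 1 FPKM value per group (fragments scaled to transcript length and to the mapped total, which allows levels to be compared between genes). No SD can be given for it, and how deeply each library was sequenced is unknown. A gene is called where the authors' Cuffdiff q-value is under 0.05. Folds are ratios of both FPKM values, and log2 ratios are log2((FPKM in hCALR-del52 + 1)/(FPKM in hCALR + 1)). Of 14 pro-B and pre-B cell markers, only Cd79b had a row, at 5.09 FPKM in hCALR-del52 cells and 8.64 FPKM in hCALR cells, in a table from which low genes had been removed.

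Cholesterol is built from acetyl-CoA through mevalonate, the isoprenoid farnesyl diphosphate, squalene and lanosterol. Fatty acids are built from the same acetyl-CoA by carboxylation and chain elongation, and are then desaturated or joined to coenzyme A for further use. The SREBP transcription factors drive both branches: SCAP escorts them out of the endoplasmic reticulum when sterols are low, and INSIG proteins hold them there when sterols are high. Growing blood cells need both products for new membrane.

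Of the 28 genes, 1 was called, and it was lower in hCALR-del52 cells, while 27 were not called. Over all rows 1.84% were called, 0.872% higher and 0.967% lower. The called gene was Acsl1, which encodes a ligase that joins long-chain fatty acids to coenzyme A. Of the 28 genes, 20 had a ratio above 1, against 47.7% of all rows. The median log2 ratio was 0.14 over the 28 genes, 0.18 over the 19 of the sterol branch and 0.07 over the 9 of the fatty acid branch, against -0.01 over all rows. No uncalled member had an absolute log2 ratio above 0.39. Of the 8067 rows within the same range of mean levels, 7.37 to 242 FPKM, 87 were called, or 1.08%. The smallest absolute log2 ratio of these called rows was 0.76. Differences of the size seen in the 27 genes were therefore not among those called at these levels.

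**Figure D1:**
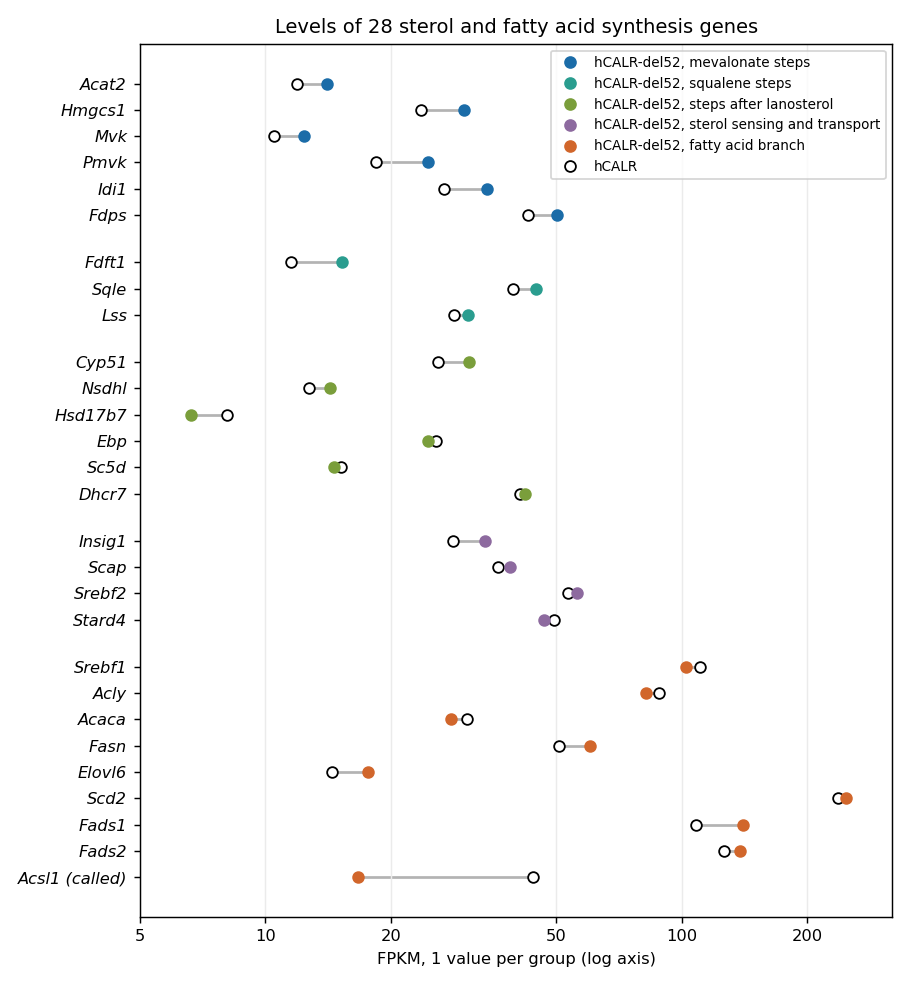
FPKM (horizontal log axis) of each of the 28 genes with a row, as 1 value per group: filled points are hCALR-del52 cells, coloured by step of the pathway, and open points are hCALR cells. The points of Acsl1, at 16.7 FPKM in hCALR-del52 cells and 43.9 FPKM in hCALR cells, lie farthest apart, and Scd2 is the highest gene in both groups.

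The genes of the mevalonate steps all had the higher value in hCALR-del52 cells, by a narrow margin, and none of them was called. Hmgcs1, the cytosolic synthase that makes HMG-CoA, was at 29.9 FPKM in hCALR-del52 cells and 23.7 FPKM in hCALR cells, a ratio of 1.26. Pmvk, which phosphorylates phosphomevalonate, was at 24.6 FPKM in hCALR-del52 cells and 18.5 FPKM in hCALR cells. Its ratio of 1.33 was the highest of the 28 genes, and the authors' deposited table gave it p = 0.158, the smallest p of any uncalled member. Idi1, the isomerase of isopentenyl diphosphate, was at 34.0 FPKM in hCALR-del52 cells and 26.8 FPKM in hCALR cells, with p = 0.207 in the authors' deposited table. These 3 genes differed by about the same factor while their levels stayed below those of Fdps.

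Fdps, which makes farnesyl diphosphate, was the highest gene of these steps, at 50.2 FPKM in hCALR-del52 cells and 42.6 FPKM in hCALR cells. Mvk, mevalonate kinase, was at 12.4 FPKM in hCALR-del52 cells and 10.5 FPKM in hCALR cells. Both had a ratio of 1.18. Acat2, which makes acetoacetyl-CoA, was at 14.1 FPKM in hCALR-del52 cells and 11.9 FPKM in hCALR cells. Acat2 lies on chromosome 17, whose 696 rows had a median log2 ratio of -0.15, while that of Acat2 was 0.22. It can share reads with its close copy Acat3, so that its own level is uncertain. Summed over the 6 measured genes of the mevalonate steps, the level was 165 FPKM in hCALR-del52 cells and 134 FPKM in hCALR cells, a ratio of 1.23, and the median log2 ratio was 0.28. Mvd, the decarboxylase of this stretch, had no row and was not analysed here.

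The 3 genes between farnesyl diphosphate and lanosterol also had ratios above 1 and were not called. Fdft1, squalene synthase, was at 15.3 FPKM in hCALR-del52 cells and 11.5 FPKM in hCALR cells, and overlaps the protease gene Ctsb. Sqle, squalene epoxidase, was at 44.7 FPKM in hCALR-del52 cells and 39.3 FPKM in hCALR cells. Lss, which closes the rings to form lanosterol, was at 30.7 FPKM in hCALR-del52 cells and 28.4 FPKM in hCALR cells. The ratios of Fdft1, Sqle and Lss were 1.33, 1.14 and 1.08.

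After lanosterol the values lay on both sides of equality. Cyp51, the demethylase that acts first on lanosterol, was at 30.8 FPKM in hCALR-del52 cells and 26.0 FPKM in hCALR cells. Its locus in the table spans 176821 bases because Cyp51 overlaps Akap9. Nsdhl, a decarboxylating sterol dehydrogenase, was at 14.3 FPKM in hCALR-del52 cells and 12.7 FPKM in hCALR cells. Hsd17b7, a sterol ketone reductase, went the other way, at 6.63 FPKM in hCALR-del52 cells and 8.11 FPKM in hCALR cells. It was the lowest of the 28 genes in both groups, with a log2 ratio of -0.26 and p = 0.565 in the authors' deposited table.

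The last enzymes of cholesterol synthesis were almost level. Ebp, a sterol isomerase, was at 24.6 FPKM in hCALR-del52 cells and 25.7 FPKM in hCALR cells. Sc5d, a sterol desaturase, was at 14.7 FPKM in hCALR-del52 cells and 15.2 FPKM in hCALR cells. Dhcr7, the reductase that yields cholesterol, was at 41.9 FPKM in hCALR-del52 cells and 40.9 FPKM in hCALR cells. The 6 measured genes after lanosterol had 3 ratios above 1 and 3 below, with a median log2 ratio of -0.0081, against 0.28 for the mevalonate steps and 0.18 for the squalene steps. The difference between these medians was not tested.

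For 2 more genes of these last steps the symbol had no row of its own. Msmo1, a sterol methyl oxidase, carries the identifier ENSMUSG00000031604, which the table lists under the older symbol Sc4mol. That row was at 41.5 FPKM in hCALR-del52 cells and 39.8 FPKM in hCALR cells. Tm7sf2, a sterol reductase, occurs only in a row named Zfpl1 that joins 3 identifiers, at 65.5 FPKM in hCALR-del52 cells and 73.9 FPKM in hCALR cells, so that its own level cannot be read. Neither is counted among the 28.

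**Figure D2:**
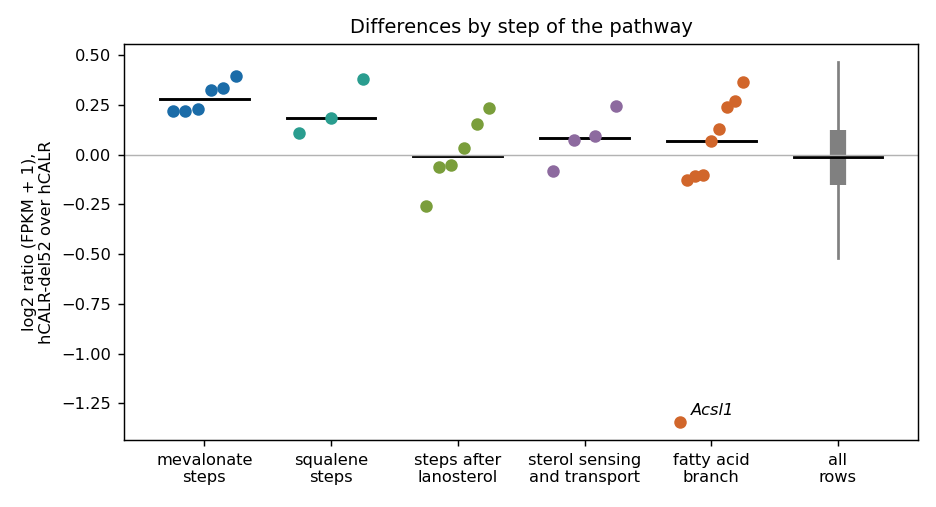
Log2 ratio of FPKM + 1, hCALR-del52 over hCALR, for each gene (points) by step of the pathway, with the median of each step as a black line. The bar for all 12615 rows runs between the 25th and 75th percentile (-0.15 to 0.12) and its thin line between the 5th and 95th (-0.52 to 0.47). All uncalled members lie within the thin line, and Acsl1 lies far below it.

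The sterol sensors and carriers differed by small amounts. Insig1, itself a known SREBP target, was at 33.7 FPKM in hCALR-del52 cells and 28.2 FPKM in hCALR cells, a ratio of 1.19 with p = 0.321 in the authors' deposited table. Scap was at 38.8 FPKM in hCALR-del52 cells and 36.3 FPKM in hCALR cells. Srebf2, the SREBP gene that mainly serves sterol synthesis, was at 56.0 FPKM in hCALR-del52 cells and 53.2 FPKM in hCALR cells. It was the highest gene of the sterol branch. Stard4, a cytosolic sterol carrier, was at 46.6 FPKM in hCALR-del52 cells and 49.4 FPKM in hCALR cells. None of these 4 genes was called.

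The fatty acid branch ran at higher levels than the sterol branch in both groups, with a median of 81.8 FPKM over 9 genes against 30.7 FPKM over 19 genes in hCALR-del52 cells, and of 88.0 against 26.0 FPKM in hCALR cells. Scd2, a stearoyl-CoA desaturase, was the highest gene, at 248 FPKM in hCALR-del52 cells and 236 FPKM in hCALR cells. Its mean lay at the 96.8th percentile of all rows. The deposited locus of Scd2 spans 45617 bases, against 13191 for the annotated gene, and any effect on its level was not tested. Fads1 and Fads2 are neighbours on chromosome 19 and encode the desaturases of polyunsaturated fatty acids. Fads1 was at 140 FPKM in hCALR-del52 cells and 108 FPKM in hCALR cells, with p = 0.218 in the authors' deposited table. Fads2 was at 138 FPKM in hCALR-del52 cells and 126 FPKM in hCALR cells. The 3 desaturase genes thus stood above all other members in both groups except Srebf1, which exceeded Fads1 in hCALR cells.

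Srebf1, the SREBP gene that mainly serves fatty acid synthesis, was at 103 FPKM in hCALR-del52 cells and 111 FPKM in hCALR cells. It overlaps Rai1, and its deposited locus spans 117569 bases, against 23493 for the annotated gene. Any effect on its level was not tested. Acly, which splits citrate to give cytosolic acetyl-CoA, was at 81.8 FPKM in hCALR-del52 cells and 88.0 FPKM in hCALR cells. Acaca, the acetyl-CoA carboxylase that commits carbon to fatty acids, was at 27.9 FPKM in hCALR-del52 cells and 30.6 FPKM in hCALR cells. These 3 genes had log2 ratios of -0.11, -0.10 and -0.13. Fasn, fatty acid synthase, was at 60.2 FPKM in hCALR-del52 cells and 50.8 FPKM in hCALR cells. Elovl6, which elongates palmitate, was at 17.7 FPKM in hCALR-del52 cells and 14.5 FPKM in hCALR cells. Apart from Acsl1 no gene of this branch was called.

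Acsl1 (ENSMUSG00000018796, protein coding, chromosome 8, 46471041 to 46536051, mm10) was at 16.7 FPKM in hCALR-del52 cells and 43.9 FPKM in hCALR cells. It was thus 2.63-fold lower in hCALR-del52 cells. For this gene the authors' deposited table gave a log2 fold change of -1.40 with p = 0.0015 and q = 0.0301. With Benjamini-Hochberg adjustment made anew across the whole table, its adjusted p was 0.0897 and no member was called, against 1.36% of all rows. At p under 0.05 with no adjustment Acsl1 was again the 1 member to pass, against 4.9% of all rows. The other measured genes of the family were not called, and their log2 ratios were between -0.25 and 0.22. Acsl5 was at 111 FPKM in hCALR-del52 cells and 105 FPKM in hCALR cells. The row of Acsl3, which joins more than 1 identifier, was at 40.6 FPKM in hCALR-del52 cells and 34.8 FPKM in hCALR cells. Acsl4 was at 14.5 FPKM in hCALR-del52 cells and 17.4 FPKM in hCALR cells. Acsl1 therefore ranked below the Acsl3 row in hCALR-del52 cells and above it in hCALR cells, whereas Acsl5 ranked first in both. The own level of Acsl3 cannot be read from a joined row, so its rank beside Acsl1 is uncertain.

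**Figure D3:**
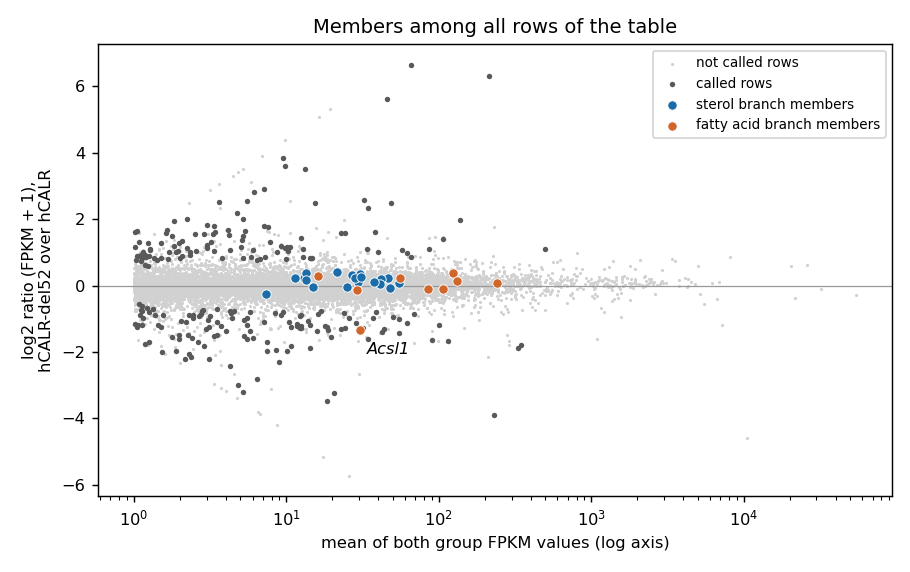
Log2 ratio of FPKM + 1, hCALR-del52 over hCALR, against the mean of both group FPKM values (log axis) for all 12615 rows, with called rows in dark grey. The sterol genes (blue) and all fatty acid genes (orange) but Acsl1 lie in the dense band around 0, and Acsl1, at -1.35, lies among the called rows.

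Markers of mature blood cells moved in the same comparison, in which 0.872% of all rows were called higher and 0.967% lower. Of 7 measured granulocyte and macrophage markers, 5 were called lower and 1 higher. Their summed level was 51.3 FPKM in hCALR-del52 cells and 136 FPKM in hCALR cells. The largest values in hCALR cells were those of Cebpe (62.9 FPKM) and Emr1 (34.9 FPKM), against 24.7 and 2.20 FPKM in hCALR-del52 cells. The called S100a8 and Ngp were low, at 2.22 and 1.37 FPKM in hCALR-del52 cells and 8.86 and 5.61 FPKM in hCALR cells. Of the 10 listed, 3 had no row, Elane, Csf1r and Itgam. Of 7 measured erythroid markers, 4 were called higher, with a summed level of 829 FPKM in hCALR-del52 cells and 211 FPKM in hCALR cells. Of 3 measured mast cell markers 2 were called lower, with a summed level of 509 FPKM in hCALR-del52 cells and 562 FPKM in hCALR cells. Most of that sum was the uncalled Gata2, which was higher, at 448 FPKM in hCALR-del52 cells and 368 FPKM in hCALR cells. The called Cpa3 was at 54.2 and 176 FPKM, and the called Cma1 at 6.86 and 18.0 FPKM, in the same order. Kit, Fcer1a and Ms4a2 had no row. None of 6 hepatocyte and adipocyte markers had a row. The part of these markers in the difference of Acsl1 was not tested, and in bulk RNA fewer cells of a type and less RNA per cell cannot be told apart.

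Promoter sequences (RefSeq, GRCm38.p6, the same build as mm10) were examined because SREBPs bind sterol regulatory elements near the starts of many of these genes. Windows of 300 bases, 250 before and 50 after an annotated start, were matched by symbol for 25 of the 31 listed genes, in 32 windows. Those not matched were Fdps, Fdft1, Sqle, Stard4, Scd2 and Fads1. The element TCACNCCAC, searched on both strands, occurred in 2 of 32 windows, against 1.24% of 32851 windows of all genes. It lay in Hmgcs1, of the mevalonate steps, and at a second annotated start of the called gene Acsl1, and these are shown for that reason. CCAAT, the core of the NF-Y site, occurred in 21 of 32 windows, against 37.4% of all windows, and Mvk, with 5 copies, is shown for it. The E-box CACGTG occurred in 6 of 32 windows against 7.15%, and the GC box GGGCGG in 24 of 32 windows against 35.7%. No motif contains the letters of another, windows of close starts overlap, and a match describes letters and is no evidence of binding. Each line gives the 250 bases before the start, read in the direction of the gene from 5′ to 3′, with TCACNCCAC, CCAAT or their reverse complements in capitals. All lie on the plus strand.
Hmgcs1, chr13:119690101-119690350: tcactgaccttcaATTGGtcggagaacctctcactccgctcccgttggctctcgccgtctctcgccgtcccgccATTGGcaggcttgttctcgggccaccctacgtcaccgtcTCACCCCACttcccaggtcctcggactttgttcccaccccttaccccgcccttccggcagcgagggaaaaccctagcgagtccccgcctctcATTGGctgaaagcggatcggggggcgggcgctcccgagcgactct
Mvk, chr5:114444019-114444268: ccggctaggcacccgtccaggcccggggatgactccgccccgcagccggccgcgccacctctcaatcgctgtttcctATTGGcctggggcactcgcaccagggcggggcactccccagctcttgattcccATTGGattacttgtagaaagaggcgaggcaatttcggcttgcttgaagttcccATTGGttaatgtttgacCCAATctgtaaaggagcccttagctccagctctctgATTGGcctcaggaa
Acsl1, first start, chr8:46470787-46471036: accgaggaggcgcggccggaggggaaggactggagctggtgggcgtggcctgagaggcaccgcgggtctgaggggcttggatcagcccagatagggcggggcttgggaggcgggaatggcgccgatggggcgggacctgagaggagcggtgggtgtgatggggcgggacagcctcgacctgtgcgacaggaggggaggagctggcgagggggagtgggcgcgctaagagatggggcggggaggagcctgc
Acsl1, second start, chr8:46490716-46490965: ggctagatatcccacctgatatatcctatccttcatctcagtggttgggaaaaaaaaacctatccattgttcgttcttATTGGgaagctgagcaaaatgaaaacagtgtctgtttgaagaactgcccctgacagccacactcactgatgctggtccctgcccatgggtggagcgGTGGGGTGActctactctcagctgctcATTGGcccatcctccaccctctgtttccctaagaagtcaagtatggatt

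In Hmgcs1 the element begins at position -137 and in the second Acsl1 window at position -76, counted from the annotated start. The first Acsl1 window holds neither the element nor CCAAT, but 7 copies of the GC box over its 300 bases. The table gives 1 FPKM for the whole Acsl1 gene, so that the starts cannot be told apart.

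Genes outside the 31 but in the same pathways gave no call, where 1.84% of all rows were called. In lists of this size no call lies close to that share. Of 24 other genes of sterol synthesis, uptake and control, 22 were measured, 10 with a ratio above 1 and 12 below, and their median log2 ratio was -0.02. Abca1, a cholesterol exporter driven by LXR, was at 14.9 FPKM in hCALR-del52 cells and 19.6 FPKM in hCALR cells. Erlin1, an ER membrane protein, was at 28.3 FPKM in hCALR-del52 cells and 23.7 FPKM in hCALR cells. Insig2, the second INSIG gene, was at 38.5 FPKM in hCALR-del52 cells and 35.7 FPKM in hCALR cells.

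Among 16 measured genes of isoprenoid use (prenylation, dolichol and ubiquinone), 5 had a ratio above 1 and 11 below, with a median log2 ratio of -0.05. Rabggtb, a subunit of the transferase that prenylates Rab proteins, differed most among them, at 208 FPKM in hCALR-del52 cells and 362 FPKM in hCALR cells, with p = 0.508 in the authors' deposited table. Its partner in Rab prenylation, Chm, was at 11.4 FPKM in hCALR-del52 cells and 13.7 FPKM in hCALR cells. Srd5a3, of dolichol synthesis, was at 24.4 FPKM in hCALR-del52 cells and 28.9 FPKM in hCALR cells. Pdss2, of ubiquinone synthesis, was at 11.4 FPKM in hCALR-del52 cells and 9.48 FPKM in hCALR cells.

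The remaining fatty acid synthesis genes lay mostly below equality: of 26 listed, 16 were measured, 4 with a ratio above 1 and 12 below, with a median log2 ratio of -0.21. Acss2, which makes acetyl-CoA from acetate, was at 48.0 FPKM in hCALR-del52 cells and 67.8 FPKM in hCALR cells. Degs1, a desaturase of ceramide synthesis, was at 29.1 FPKM in hCALR-del52 cells and 41.3 FPKM in hCALR cells, with p = 0.0992 in the authors' deposited table, the smallest of this list. Mlx, a partner of the carbohydrate-response factor ChREBP, was at 25.1 FPKM in hCALR-del52 cells and 31.6 FPKM in hCALR cells. Mid1ip1, an activator of acetyl-CoA carboxylase, was at 30.7 FPKM in hCALR-del52 cells and 37.3 FPKM in hCALR cells. Me1, malic enzyme, was at 3.75 FPKM in hCALR-del52 cells and 4.52 FPKM in hCALR cells. Scd1, the close relative of Scd2, was at 1.96 FPKM in hCALR-del52 cells and 1.82 FPKM in hCALR cells, far below Scd2 in both groups.

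**Figure D4:**
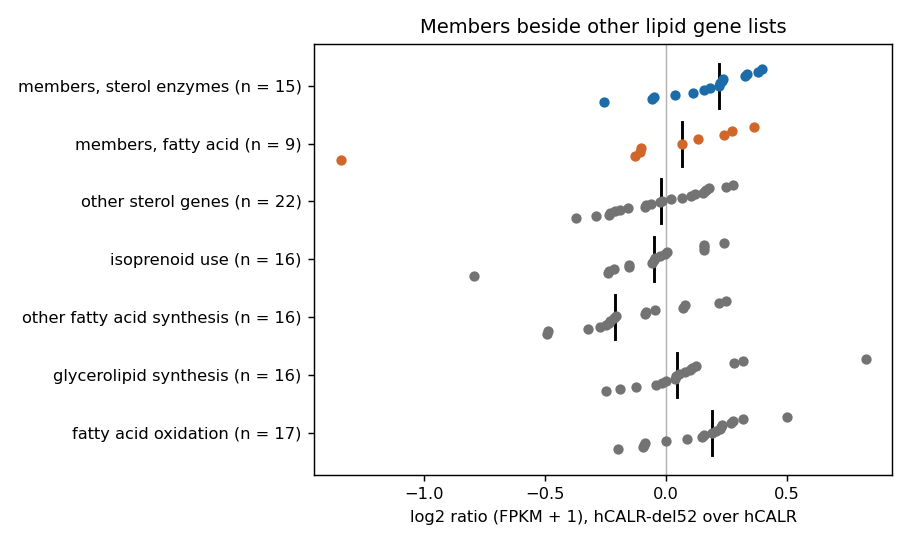
Log2 ratio of FPKM + 1, hCALR-del52 over hCALR, of each measured gene (points) and the median (black line) of 7 lists. The 15 measured sterol enzymes have a median of 0.22, the 22 other sterol genes one of -0.02 and the 16 other fatty acid synthesis genes one of -0.21.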

How the data were processed

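RNA of 6 samples, 3 hCALR-del52 and 3 hCALR, was grouped by title. Whether replicates are separate cultures is not stated in the labels, and the p-values may then reflect technical spread alone. Per the submitters' processing notes and the file headers, reads were processed by the authors with TopHat2 2.0.9, Bowtie2 2.1.0 and Cuffdiff 2.1.1 on mm10 with Ensembl genes, and low and highly variable genes were removed. The authors' deposited table gives FPKM as 1 value per group, a log2 fold change (hCALR-del52 over hCALR), a p-value and q-value, a test statistic (a score) and a rank. No test was computed over replicates. The sources used here do not say whether counting used strand, and 5 members overlap another protein-coding gene.

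Rows were matched by symbol, with the highest mean FPKM for a repeated symbol, and no member repeated. Starts were shifted by 1, after which 40.9% of 10962 rows match a GENCODE vM21 gene start (1.07% before). Ratios used a pseudocount of 1 FPKM, which understates the change of low genes. The members and lists were chosen with earlier results of these data known. Named besides the members were called genes and the 4 with the largest absolute log2 ratio of each other list, plus a fixed set, among them Insig2, Scd1, Acss2, Me1, Abca1 and Cpt1a. A few genes covered by this rule are not reported here, but every measured gene enters the counts and medians. Acsl3 to Acsl5, and genes named elsewhere as overlapping or adjacent, were added after their values were seen. The adjustment and motif search were tested on simulated data. Scripts ran in Python 3.11.15 with pandas 2.3.3.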

Additional observations from a re-analysis of the deposited data

How the results depend on the processing

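No paired analysis was possible because each group has a single combined value. Leaving out replicates or judging limits of depth was impossible on the same grounds. The count of called members, 1, became 0 with q under 0.01, since the authors' q of Acsl1 was 0.0301. It was also 0 with Benjamini-Hochberg adjustment over all rows (adjusted p of Acsl1 0.0897, with 1.36% of all rows called). With a minimum of 5 FPKM and the adjustment repeated it was again 0 (adjusted p of Acsl1 0.115). The shares of all rows called with q under 0.01 and with the 5 FPKM minimum are not given here. The count was 0 as well, by construction, when members overlapping another annotated gene were left out, since Acsl1 overlaps the non-coding Gm45244. It stayed 1 with no adjustment at p under 0.05 (4.9% of all rows), with a minimum ratio of 1.5, with the lowest row of a repeated symbol, without rows of several identifiers and with Msmo1 added by its identifier. The last of these and the overlap alternative were chosen after seeing the data. No member repeats or has a row of several identifiers, so those settings could not have changed the count. Nor could the minimum ratio of 1.5, since Acsl1 differed 2.63-fold.

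Of 85 recomputed medians, 80 kept their direction and moved by under 0.1 on the log2 scale. The median of the genes after lanosterol, close to 0, changed sign to 0.0030 relative to the median of all rows, and to 0.035 with Msmo1 added or 1 member left out. That of the fatty acid branch went down to -0.018 when 1 member was left out, and was 0.18 without overlapping genes. All 36 recomputed counts of ratios above 1 equalled the reported count. Most of them could not have changed, since a pseudocount does not alter which value is larger and no member repeats. Only the counts taken relative to the median of all rows could have moved.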

Other observations

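Of 17 genes of glycerolipid synthesis, 16 were measured, 10 with a ratio above 1 and 6 below, with a median log2 ratio of 0.05. None was called, against 1.84% of all rows. Agpat3, an acyltransferase that makes phosphatidic acid, stood apart, at 13.3 FPKM in hCALR-del52 cells and 7.08 FPKM in hCALR cells. Its ratio was 1.88, with p = 0.00405 and q = 0.0667 in the authors' deposited table. With Benjamini-Hochberg adjustment made anew over all rows, its adjusted p was 0.193. Lpin2, a phosphatidic acid phosphatase, was at 126 FPKM in hCALR-del52 cells and 101 FPKM in hCALR cells. Agpat1, a paralogue of Agpat3, was at 30.3 FPKM in hCALR-del52 cells and 36.2 FPKM in hCALR cells, and Agpat4 was at 1.32 FPKM in hCALR-del52 cells and 0.911 FPKM in hCALR cells.

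Genes of fatty acid oxidation lay mostly above equality: 13 of 17 measured genes had a ratio above 1, with a median log2 ratio of 0.19. Again none was called, against 1.84% of all rows. Cpt1a, the mitochondrial gate for long-chain acyl-CoA, the product of ACSL enzymes, was at 53.0 FPKM in hCALR-del52 cells and 37.2 FPKM in hCALR cells, with p = 0.0604 in the authors' deposited table. Acaa2, a thiolase, was at 40.1 FPKM in hCALR-del52 cells and 32.0 FPKM in hCALR cells. Etfb, an electron carrier subunit, was at 145 FPKM in hCALR-del52 cells and 120 FPKM in hCALR cells, and Etfdh, which accepts those electrons, was at 29.2 FPKM in hCALR-del52 cells and 24.1 FPKM in hCALR cells.

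The difference of Acsl1 was not shared by its neighbours on chromosome 8. The log2 ratios of the 9 other genes with a symbol whose rows lay within 500 kb ran between -0.20 and 0.21. None of these 9 was called, against 1.84% of all rows. Mlf1ip and Ccdc111 share the closest locus in the table. Mlf1ip was at 23.4 FPKM in hCALR-del52 cells and 20.1 FPKM in hCALR cells, and Ccdc111 was at 10.9 FPKM in hCALR-del52 cells and 11.1 FPKM in hCALR cells. On the other side Slc25a4, a mitochondrial ADP/ATP carrier, was at 76.4 FPKM in hCALR-del52 cells and 72.2 FPKM in hCALR cells. Of all 12615 rows, 98 had a log2 ratio at or below that of Acsl1.

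In the authors' deposited table the test statistic of Acsl1 is -1.87. Of the 93 rows whose absolute statistic lies within 0.1 of it, 29 were called, and their p-values in the authors' deposited table ran between 5e-05 and 0.948 with a median of 0.00645.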
